A study of Homo sapiens with 6 samples.

Results

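The genes described here are 10 genes of the hypoxia-inducible factor (HIF) pathway, picked by symbol from the 60419 genes of the deposited tables. They are the HIF subunit genes HIF1A, EPAS1 and ARNT, the prolyl hydroxylase genes EGLN1, EGLN2 and EGLN3, the ubiquitin ligase gene VHL, and 3 genes used as hypoxia markers, MIR210HG, CA9 and NDRG1. All 10 had a row in both tables, and 9 passed the filter on low counts; EGLN3 did not. They were measured by RNA sequencing in 12Z cells, an immortalised wild-type line of human endometriotic cells kept in medium with 10% charcoal-stripped serum. In the Myrrh group, 3 libraries came from cells given an extract of myrrh resin at 100 µg/mL in DMSO for 12 h. In the DMSO group, 3 libraries came from cells given the vehicle alone. The study uses 1 cell line, and the labels state no oxygen level and do not say whether the libraries of a group came from separate cultures. The p-values therefore measure the spread between these libraries, which may be technical.

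HIF is a dimer of an oxygen-regulated alpha subunit, encoded by HIF1A or EPAS1 (HIF-2 alpha), and the stable beta subunit encoded by ARNT. When oxygen is present, the EGLN enzymes hydroxylate prolines of the alpha subunits, and the VHL protein then recruits a ubiquitin ligase that sends them to the proteasome. When oxygen, iron or 2-oxoglutarate is short, the alpha subunits persist and switch on genes of glycolysis, vessel growth and pH control. Most of this control acts on protein, and RNA sequencing measures only the transcripts.

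MIR210HG, whose RNA changed most among these genes, is the host gene of the microRNA miR-210. The GENCODE model places it at chr11:565660-568457 on the minus strand of GRCh38 as a long noncoding RNA, and its longest transcript has 2 exons. The microRNA hairpin lies at chr11:568089-568198, in an intron of all 4 annotated host transcripts. The mature sequences are given to show what the host locus encodes, with the seed (bases 2 to 8) in capitals, from RefSeq on GRCh38.p14.
hsa-miR-210-3p: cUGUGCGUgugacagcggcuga
hsa-miR-210-5p: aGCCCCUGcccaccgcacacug
None of the other mature human microRNAs in the same RefSeq table had either seed. The libraries did not measure mature microRNA: the MIR210 row held 1 count in the DMSO libraries and 0 in the Myrrh libraries.

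HIF dimers bind the short core motifs ACGTG and GCGTG, so the 250 bases before the RefSeq start of MIR210HG were searched for both, on both strands. This stretch is chr11:568458-568707 on the minus strand of GRCh38.p14, and capitals mark the matches.
MIR210HG upstream: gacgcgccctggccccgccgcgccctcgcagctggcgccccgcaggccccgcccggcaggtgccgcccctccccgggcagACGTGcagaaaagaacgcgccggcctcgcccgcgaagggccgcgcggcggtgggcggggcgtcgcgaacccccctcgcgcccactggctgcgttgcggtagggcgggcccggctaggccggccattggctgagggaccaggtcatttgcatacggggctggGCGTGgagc
The ACGTG match begins 170 bases before the start and the GCGTG match 9 bases before it. CA9 also has such a match, and it is shown for comparison, at chr9:35673898-35673927 on the plus strand, with ACGTG read on the opposite strand.
CA9 motif: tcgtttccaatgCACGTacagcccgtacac
These matches are letters in a window and do not show that a factor was bound.

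The libraries held 22454783 to 27588151 estimated counts. Levels are given as CPM, scaled estimated counts (TMM factors) relative to library size, or as TPM, which is also per transcript length and so allows genes to be compared. Of 6 epithelial markers, KRT8, KRT18 and KRT19 reached 771, 661 and 150 TPM on average in DMSO. KRT7 was at 5.84, EPCAM at 1.12 and CDH1, which did not pass the filter, at 0.133 TPM. In Myrrh 3 were lower: KRT8 (log2 fold change -0.54 ± 0.06), KRT18 (-0.31 ± 0.06) and KRT19 (-0.64 ± 0.06). Another 2 were higher: KRT7 (0.53 ± 0.18) and EPCAM (1.13 ± 0.23). Among 6 mesenchymal markers, VIM was at 2048 and COL1A1 at 1444 TPM in DMSO. In Myrrh 3 of them were lower: COL1A1 (log2 fold change -2.91 ± 0.06), PDGFRB (-0.97 ± 0.06) and VIM (-0.44 ± 0.06). The other 3 were higher: ZEB1 (0.78 ± 0.06), FN1 (0.31 ± 0.08) and CDH2 (0.25 ± 0.06). Of 6 leukocyte and endothelial markers, 3 passed the filter. CD68, a lysosomal protein of macrophages that other cells also make, rose from 31.6 ± 0.716 to 56.5 ± 6.28 CPM (log2 fold change 0.84 ± 0.07, adjusted p = 6.36e-11, edgeR). CD14 fell from 174 to 30 counts, summed over the libraries of a group, and PTPRC from 46 to 5. PECAM1 held 37 and 6 counts and VWF 10 and 6, while CDH5 was at 0 in all 6 libraries. The part of these markers in the results was not tested.

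Of the 9 genes tested, 3 were higher in Myrrh (HIF1A, EPAS1 and EGLN2), 4 were lower (EGLN1, VHL, NDRG1 and MIR210HG), and 2 were not called (ARNT and CA9). A call means an adjusted p under 0.05 in edgeR's quasi-likelihood fit, with the Benjamini-Hochberg correction taken over 16395 genes. Over all those genes 78.4% were called, 39.3% higher and 39.1% lower, so the 7 calls, 77.8% of the tested members, are near the background. The even split depends on the scaling: 5378 genes were called higher and 7479 lower with library totals, and 5521 and 7389 with upper quartile factors. With either setting 3 members were higher and 5 lower, ARNT being the added call. On log2(TPM + 1), limma called fewer: 5 of the 9 members, 3 higher and 2 lower, and 11898 of the 16395 genes. VHL and NDRG1 were the lost calls. The CPM of the 2 groups did not overlap for 7 of the 9 members and for 80.2% of all genes tested. The median log2 fold change was -0.20 over the 9 members and -0.02 over all genes. MIR210HG alone changed by more than 2-fold. A test against a log2 fold change of 0.5 (edgeR's glmTreat) called 7483 of the 16395 genes and 2 of the 9 members, EPAS1 and MIR210HG.

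**Figure D1:**
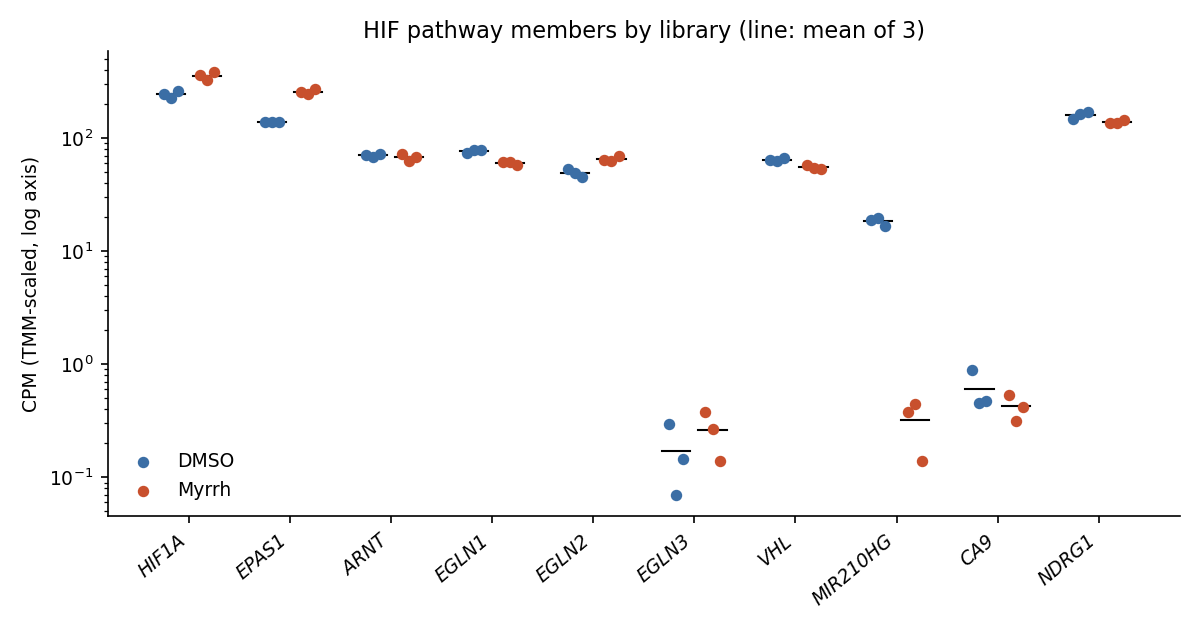
CPM on a log axis for the 10 genes, with 1 point per library (DMSO blue, Myrrh orange) and a line at the mean of 3. EPAS1 and HIF1A sit higher in all 3 Myrrh libraries, MIR210HG falls from about 18.4 to 0.322 CPM, and EGLN3 and CA9 stay below 1 CPM in all 6.

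The transcripts of both alpha subunits rose. EPAS1, at chr2:46293667-46386703, held 139, 138 and 139 CPM in the DMSO libraries and 257, 243 and 271 in the Myrrh libraries. Every Myrrh library was above every DMSO library, and the log2 fold change was 0.89 ± 0.05 (SE; adjusted p = 4.02e-14, edgeR), or 1.85-fold. HIF1A, at chr14:61695513-61748259, held 244, 226 and 259 CPM in DMSO and 360, 322 and 384 in Myrrh. These groups did not overlap either, and the log2 fold change was 0.55 ± 0.06 (adjusted p = 4.82e-08, edgeR). It was 0.37 on the authors' log2(TPM + 1) values (adjusted p = 0.00106, limma). The HIF1A locus also holds genes on both strands. The antisense gene HIF1A-AS3 had 63 counts over the DMSO libraries and 47 over the Myrrh libraries, and HIF1A-AS1 had 3 and 6. The same-strand gene AL137129.1 had 308 and 473, and HIF1A itself 19499 and 23954.

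ARNT, the shared partner, was not called. It lies at chr1:150809705-150876768 and held 70.2, 67.3 and 72.8 CPM in DMSO and 71.6, 63.2 and 68.4 in Myrrh, with overlapping groups. The log2 fold change was -0.05 ± 0.06 (adjusted p = 0.428, edgeR). Its call depends on the scaling: it was -0.19 with library totals and -0.18 with upper quartile factors, both called (adjusted p = 0.00723 and 0.00686, edgeR). The sign was negative under each scaling of the counts and positive on log2(TPM + 1), at 0.09, without a call (adjusted p = 0.408, limma). With library totals the median of all genes was -0.16, and with upper quartile factors -0.14.

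Per transcript length, HIF1A was the most abundant of the 10 genes in both groups. It reached 133 ± 8.36 TPM in DMSO and 173 ± 17.3 in Myrrh (SD, n = 3), while EPAS1 went from 50.8 ± 2.11 to 93 ± 4.12 TPM. The ratio of HIF1A to EPAS1 TPM within a library went from 2.55, 2.54 and 2.79 to 1.84, 1.73 and 1.998. All 3 Myrrh ratios were below all 3 DMSO ratios. The mean log2 ratio was 1.39 in DMSO and 0.89 in Myrrh, a difference of -0.50 (two-sided exact permutation test, p = 0.1, the smallest that 3 against 3 allows). In estimated counts, not per length, the difference was -0.34. In DMSO, NDRG1 followed HIF1A at 93.4 ± 6.22 TPM, ahead of EPAS1. In Myrrh, EPAS1 was second, and its lowest library (88.7 TPM) was just above the highest NDRG1 value (88.1). MIR210HG, EGLN2 and EGLN1 were next in DMSO, at 37.1, 36.6 and 36.3 TPM, and neighbours in that order overlapped. ARNT (22.2) and VHL (21.6) also overlapped, and CA9 (0.86) and EGLN3 (0.19) were lowest.

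The main prolyl hydroxylase transcripts moved in opposite directions. EGLN1, which encodes PHD2, the main oxygen sensor for HIF1A protein in most cells, lies at chr1:231363751-231425044. It held 73.9, 77.9 and 78.2 CPM in DMSO and 60.8, 61 and 58.1 in Myrrh. All Myrrh libraries were lower, with a log2 fold change of -0.35 ± 0.05 (adjusted p = 1.2e-06, edgeR). EGLN2, which encodes PHD1, lies at chr19:40798996-40808433. It held 53.2, 49.4 and 45.4 CPM in DMSO and 63.5, 63.1 and 68.7 in Myrrh. Here all Myrrh libraries were higher, with a log2 fold change of 0.40 ± 0.06 (adjusted p = 1.52e-06, edgeR). The direction of both was the same under every scaling tried.

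EGLN1 and EGLN2 were close to equal in TPM in the DMSO libraries and unequal in the Myrrh libraries. EGLN2 made up 52.4%, 49.4% and 48.3% of the summed EGLN TPM in DMSO and 63.5%, 63.7% and 65.8% in Myrrh. The share of EGLN2 was higher by 14.3 percentage points, and that of EGLN1 went from 49.7% ± 2.27 to 35.4% ± 1.26 (SD, n = 3). For both shares the two-sided exact permutation test gave p = 0.1, the smallest possible here. EGLN2 overlaps the readthrough gene RAB4B-EGLN2, so reads can be split between them. The readthrough row held only 67.5 counts over the DMSO libraries and 41.7 over the Myrrh libraries (log2 fold change -0.41 ± 0.74, adjusted p = 0.635, edgeR). Adding it to EGLN2 gave a difference of 13.9 points. RAB4B itself was at 0.03 ± 0.08 (adjusted p = 0.792, edgeR).

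EGLN3, a hydroxylase gene that HIF itself induces in many cells, was hardly detected. It held 7, 2 and 4 counts in the DMSO libraries and 9, 6 and 3 in the Myrrh libraries, and the groups overlapped. The ratio of summed, scaled counts, Myrrh to DMSO, was 1.65, with a 95% exact binomial interval of 0.764 to 3.66, which covers counting error only. A change of EGLN3 was not detected, and at this depth changes within that interval could not be resolved. The GENCODE model, chr14:33924231-34462774, also overlaps SPTSSA on the same strand, a gene with 2590 and 1198 counts over the DMSO and Myrrh libraries.

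**Figure D2:**
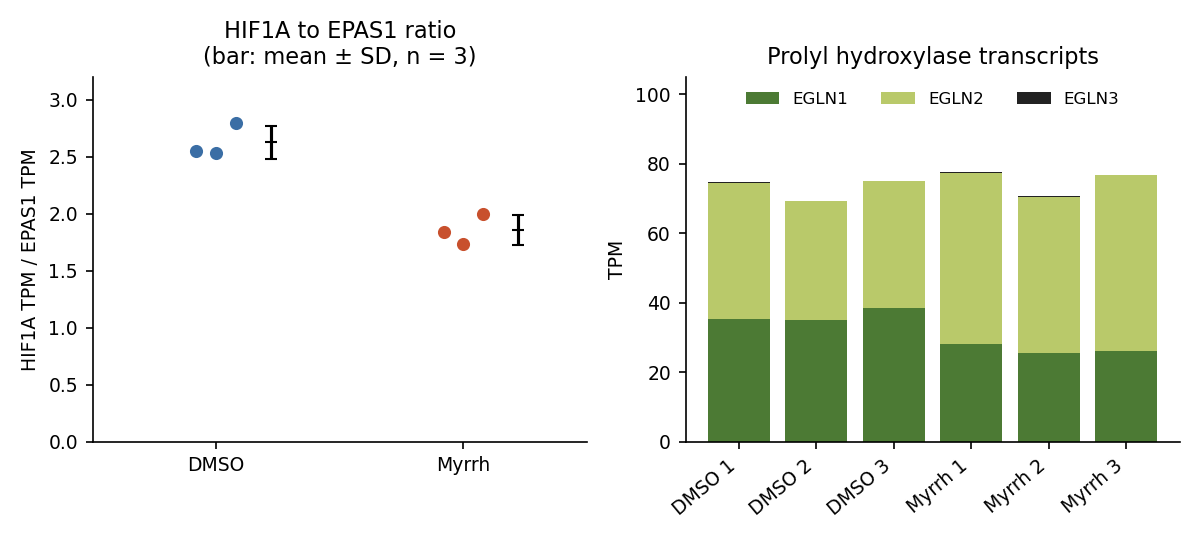
Left, HIF1A TPM divided by EPAS1 TPM in each library, with mean ± SD beside it: about 2.63 in DMSO and 1.86 in Myrrh. Right, TPM of EGLN1, EGLN2 and EGLN3 stacked for each library; the EGLN1 part is smaller and the EGLN2 part larger in each Myrrh library, and EGLN3 is barely visible.

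VHL, which recognises hydroxylated HIF alpha, was lower in counts and not in TPM. It lies at chr3:10141008-10152220 and held 63.8, 62.6 and 65.9 CPM in DMSO and 57.6, 54.3 and 53 in Myrrh. The groups did not overlap, with a log2 fold change of -0.22 ± 0.06 (adjusted p = 0.000775, edgeR). In TPM the libraries held 21.9, 20.7 and 22.3 in DMSO and 23.4, 19 and 20.7 in Myrrh, which overlapped (log2 difference -0.04, adjusted p = 0.687, limma). Counts and TPM part where the estimated length of a gene's transcripts differs between libraries. They also differ in scaling, since TPM was not scaled with TMM factors. The median over all genes was 0.04 on log2(TPM + 1) and -0.02 in counts. The estimated counts per TPM of VHL, relative to the median gene of each library, were 0.92 times as high in Myrrh as in DMSO. For HIF1A the same factor was 1.18, for EGLN1 1.11 and for EPAS1 1.05. The part of transcript choice in these differences was not tested.

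VHL works as the receptor of a ligase built on CUL2 with the adaptors ELOB and ELOC and the RING protein RBX1. RBX1 fell from 57.7 ± 1.27 to 23.4 ± 1.32 CPM (log2 fold change -1.30 ± 0.06, adjusted p = 2.48e-16, edgeR), and ELOB was slightly lower (-0.13 ± 0.05, adjusted p = 0.0278, edgeR). CUL2 and ELOC rose, by 0.48 ± 0.06 and 0.44 ± 0.07. The 5 genes of this ligase therefore did not move one way.

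Around the core members, 20 of 21 listed HIF subunits and regulators were tested; 13 rose, 5 fell and 2 were not called. That is 90% called, against 78.4% of all genes, with 65% higher (39.3% of all genes) and 25% lower (39.1%). The median was 0.44, against -0.02 over all genes. HSP90AA1 and HSP90AB1, the cytosolic chaperones that bind HIF1A protein among many clients, rose by 3.17 ± 0.06 and 1.50 ± 0.05. SIAH2, a ubiquitin ligase that targets prolyl hydroxylases, rose from 28.5 ± 0.637 to 85.1 ± 2.32 CPM (1.58 ± 0.06). BMAL1, a clock factor of the same protein family as ARNT, rose from 11.8 ± 0.394 to 27.2 ± 1.95 CPM. HIF1AN, the asparagine hydroxylase that blocks HIF's coactivator contact, rose by 0.25 ± 0.05 in counts. In TPM, HIF1AN went from 7.7 ± 0.58 to 13.96 ± 2.54, a 1.81-fold ratio, and its estimated counts per TPM, relative to the median gene, were 0.695 times as high in Myrrh. CITED2, which competes with HIF1A for the coactivators CREBBP and EP300, fell from 120 ± 6.93 to 58.6 ± 5 CPM (-1.03 ± 0.06). P4HTM, a prolyl hydroxylase of the ER membrane, fell by 0.55 ± 0.06. USP20, a deubiquitinase, was at -0.28 ± 0.06 (adjusted p = 0.000347, edgeR), a call lost on log2(TPM + 1) (adjusted p = 0.349, limma). ARNT2, a relative of ARNT, was at -0.33 ± 0.30 and not called.

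The 3 hypoxia markers did not behave alike. MIR210HG held 452, 566 and 459 counts in the DMSO libraries and 9, 10 and 3 in the Myrrh libraries. In CPM these were 19, 19.6 and 16.5 against 0.377, 0.448 and 0.141, and the groups were far apart. The log2 fold change was -5.80 ± 0.18 (adjusted p = 1e-19, edgeR), the 11th lowest of all 16395 genes tested. The ratio of summed, scaled counts, DMSO to Myrrh, was 56.4, with a 95% exact binomial interval of 37.1 to 90.2 for counting error only. Leaving out each library in turn gave values of -6.09 to -5.45. The neighbouring gene PHRF1 rose by 0.44 ± 0.06, from 41.4 ± 0.951 to 56 ± 1.47 CPM (adjusted p = 9.82e-08, edgeR). Of the genes beside other members, TPM2, a tropomyosin next to CA9, fell by 0.80 ± 0.06, and IRAK2, a kinase of innate immune signalling next to VHL, rose by 1.47 ± 0.07.

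CA9 encodes the carbonic anhydrase of the cell surface that is widely used as a stain for hypoxia. At chr9:35673856-35681159, its longest transcript has 11 exons. Its libraries held 0.884, 0.457 and 0.469 CPM in DMSO and 0.538, 0.314 and 0.423 in Myrrh. These groups overlapped, and the log2 fold change was -0.46 ± 0.39 (adjusted p = 0.284, edgeR). On log2(TPM + 1) its sign was the opposite, at 0.02 (adjusted p = 0.93, limma). The summed counts were 47 in DMSO and 29 in Myrrh. After scaling, the ratio of Myrrh to DMSO was 0.735, with a 95% exact binomial interval of 0.446 to 1.19. CA9 overlaps ARHGEF39 on the opposite strand, a gene with 1227 and 219 counts over the DMSO and Myrrh libraries (-2.22 ± 0.12, adjusted p = 2.52e-15, edgeR). Whether the counting used strand is not stated in the labels, so reads of the 2 genes cannot be told apart. Among other carbonic anhydrase genes, CA12, also a HIF target at the cell surface, was at 65.2 ± 3.22 and 52.6 ± 1.85 CPM (-0.31 ± 0.06, adjusted p = 2.03e-05, edgeR). CA12 was not called on log2(TPM + 1) (adjusted p = 0.0547, limma). CA11 fell by 0.83 ± 0.14, CA5B rose by 0.57 ± 0.11, and CA13 was at 0.33 ± 0.16 (adjusted p = 0.0523, edgeR). CA13 was called without Myrrh replicate 2 (0.39, adjusted p = 0.0389, edgeR) and without Myrrh replicate 3 (0.38, adjusted p = 0.0486, edgeR).

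NDRG1, a stress and differentiation gene that HIF induces in many cells, was well expressed and changed little. It lies at chr8:133237171-133302022 and held 146, 164 and 170 CPM in DMSO and 136, 137 and 144 in Myrrh. The highest Myrrh library was just below the lowest DMSO library, with a log2 fold change of -0.20 ± 0.06 (adjusted p = 0.00247, edgeR). In TPM the groups overlapped and the call was lost (-0.11, adjusted p = 0.12, limma). Of its family, NDRG2 fell from 10.3 ± 1.2 to 4.34 ± 0.306 CPM (-1.24 ± 0.12) and NDRG3 by 0.61 ± 0.06. NDRG4 was at -0.09 ± 0.11 and not called, and its sign was positive on log2(TPM + 1).

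**Figure D3:**
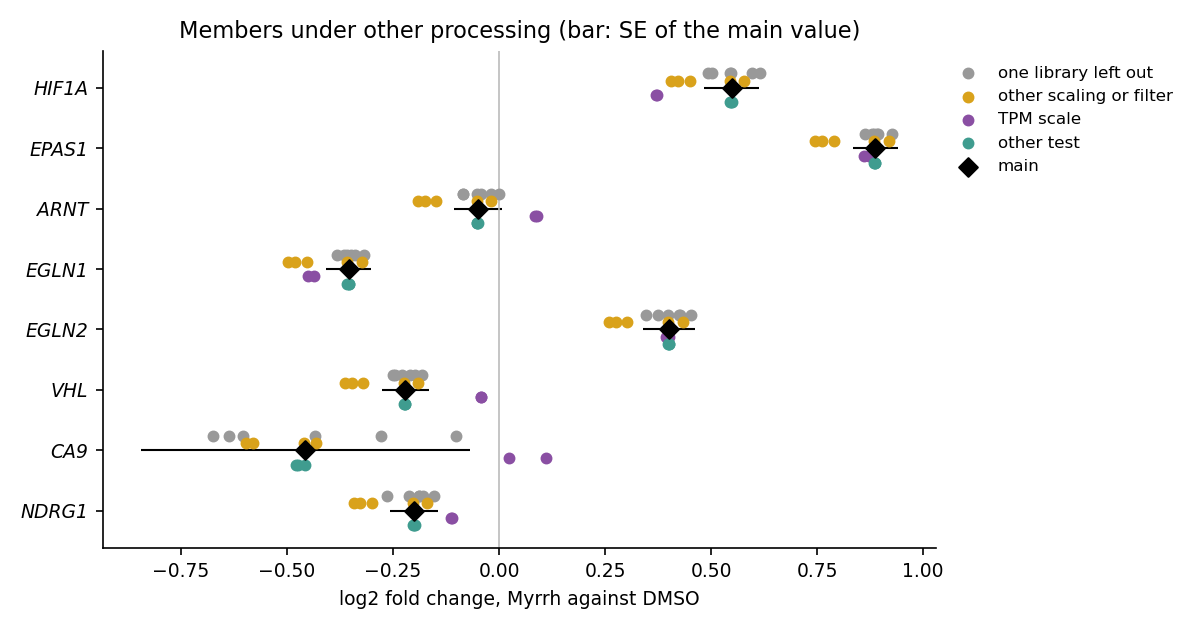
Log2 fold change of 8 tested genes (MIR210HG, far outside this range, is left out) as reported (black diamond, bar SE) and under other processing. HIF1A, EPAS1 and EGLN2 stay above 0 and EGLN1, VHL and NDRG1 below 0 in all settings shown, VHL reaching -0.04 and NDRG1 -0.11 on the TPM scale; ARNT and CA9 cross 0 there.

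Genes known as HIF targets were called in both directions, as were genes at large. Of 21 listed target genes of glycolysis, all tested, 7 rose and 10 fell, a median of -0.15. That is 81% called, near the 78.4% of all genes, with 33.3% higher (39.3% of all genes) and 47.6% lower (39.1%). With library totals the split was 5 higher and 14 lower, and with upper quartile factors 6 and 13. On log2(TPM + 1) it was nearly even, at 7 higher and 8 lower (limma). LDHA, which turns pyruvate into lactate, held 701, 737 and 764 CPM in DMSO and 202, 232 and 219 in Myrrh, a log2 fold change of -1.75 ± 0.06 (adjusted p = 2.68e-19, edgeR). ENO2, an enolase known from neurons, fell by 1.41 ± 0.05, and PFKFB4, a regulator of glycolytic flux, by 0.54 ± 0.08. ALDOC, an aldolase, went from 2.44 ± 0.24 to 0.517 ± 0.0478 CPM (-2.23 ± 0.26). Among those that rose, HK2, a hexokinase, went from 79.3 ± 3.67 to 183 ± 2.09 CPM (2.3-fold), and the glucose transporter SLC2A3 from 88.9 ± 4.96 to 192 ± 6.19 CPM (1.11 ± 0.05). HK1 (0.88 ± 0.06) and PFKP (0.59 ± 0.06), a phosphofructokinase, rose too. In counts, PFKL, another phosphofructokinase, fell by 0.35 ± 0.06 and GPI, the isomerase between these steps, by 0.24 ± 0.05. In TPM the groups overlapped for both. PFKL went from 92.7 ± 7.54 to 77.3 ± 17.7 TPM, and GPI from 206 ± 4.27 to 212 ± 9.4 TPM. The 4 genes that were not called were ALDOA, TPI1, PGK1 and PDK1, with values from -0.15 to 0.02.

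Outside glycolysis, 36 of 37 listed HIF targets were tested; 17 rose and 14 fell, a median of 0.04. That is 86.1% called, with 47.2% higher and 38.9% lower, against the 39.3% and 39.1% of all genes. The balance turned with the scaling, to 14 higher and 18 lower with library totals and 15 and 18 with upper quartile factors. That of all genes turned with these 2 settings too. With a filter of 5 CPM in 3 libraries the targets split 15 and 16. On log2(TPM + 1) they split the other way, 17 higher and 8 lower (limma), against 6382 and 5516 of all genes. PPFIA4, a liprin of cell contacts, held 22.1, 24.7 and 23.2 CPM in DMSO and 2.81, 2.33 and 2.54 in Myrrh (-3.19 ± 0.11, adjusted p = 1.34e-19, edgeR). STC1, the hormone stanniocalcin, went from 12.4 ± 0.466 to 1.42 ± 0.291 CPM (-3.13 ± 0.14). WSB1, a ubiquitin ligase subunit, fell by 1.79 ± 0.06, and the zinc finger gene ZNF395 went from 92.1 ± 2.03 to 40.2 ± 2.76 CPM. The highest values were those of HMOX1 (6.78 ± 0.07), the heme oxygenase known also as a target of NRF2, and STC2 (3.37 ± 0.06), known also from the integrated stress response. TFRC, the transferrin receptor, rose by 1.66 ± 0.10. JMJD6, a hydroxylase of the nucleus, rose by 1.48 ± 0.06. EPO, the classic HIF target, was not tested; it held 13, 5 and 13 counts in DMSO and 1, 2 and 0 in Myrrh. The ratio of its summed, scaled counts, DMSO to Myrrh, was 8.68, with a 95% exact binomial interval of 2.71 to 44.4.

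**Figure D4:**
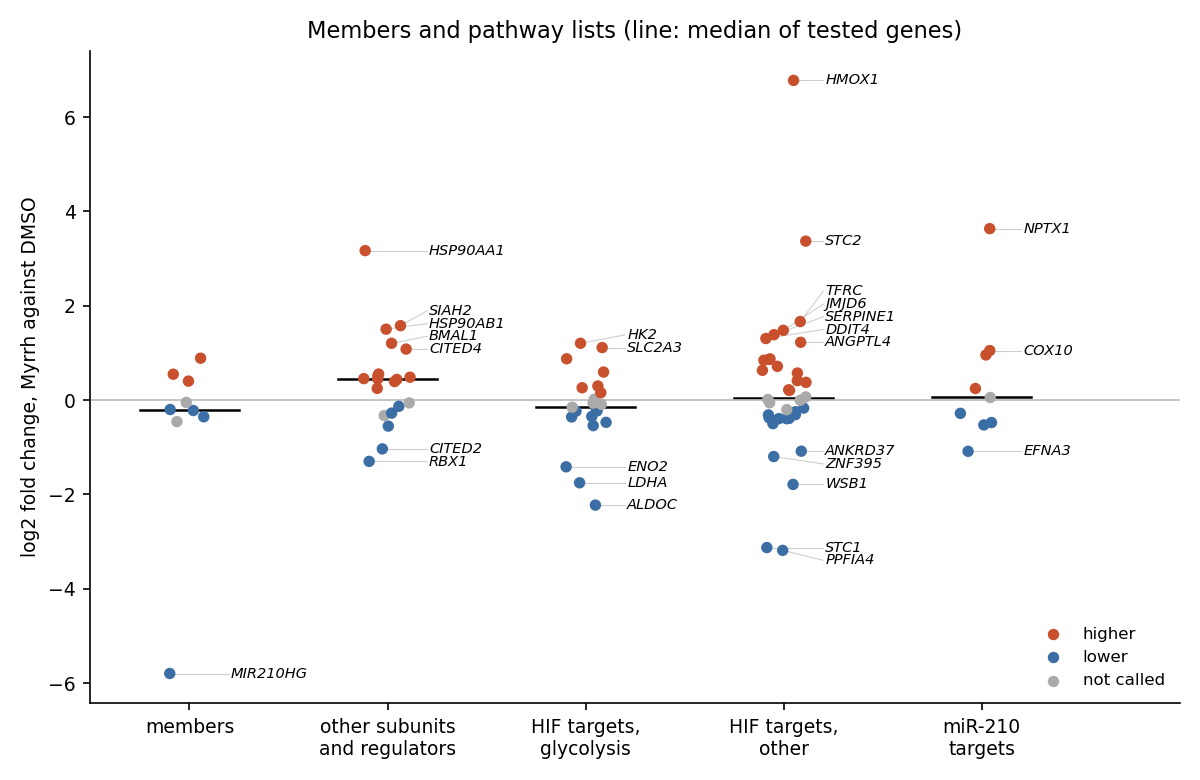
Log2 fold change of each tested gene in the members and 4 related lists, with a line at each list's median; orange and blue points are called higher and lower, grey points are not called, and genes past 2-fold are named. MIR210HG, at -5.80, lies below all other genes shown, and each list has genes on both sides of 0.

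Reported targets of miR-210, a microRNA that lowers the transcripts it binds, were called in both directions too. All 9 were tested, and 4 rose and 4 fell (88.9% called against 78.4% of all genes, median 0.05), an even split like that of all genes. NPTX1, a pentraxin, went from 0.256 ± 0.108 to 3.17 ± 0.862 CPM (3.63 ± 0.31). COX10, needed for the heme of cytochrome oxidase, rose by 1.05 ± 0.07 and TNPO1, a nuclear import receptor, by 0.96 ± 0.05. E2F3 was at 0.24 ± 0.06, called with TMM factors (adjusted p = 0.000496, edgeR) but not with library totals (adjusted p = 0.129, edgeR). EFNA3, an ephrin, fell by 1.09 ± 0.17, the repair gene RAD52 by 0.53 ± 0.07 and GPD1L by 0.48 ± 0.09. ISCU, the iron-sulfur cluster scaffold, was at -0.28 ± 0.06 in counts and was not called on log2(TPM + 1) (adjusted p = 0.167, limma).

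Promoter windows in RefSeq, from 250 bases before to 50 after a start, were found for 8 of the 10 members, with 10 windows in all; VHL and NDRG1 were not searched. ACGTG or GCGTG on either strand was present in 6 of these windows (60%), against 48.4% of all 35116 windows of the same length. Besides MIR210HG and CA9, the genes HIF1A, EPAS1, EGLN1 and EGLN2 had a match, and ARNT and EGLN3 had none in this window. In EGLN2 the match reads ACGTG on both strands at once, as part of a palindrome. The share of windows was 69% for glycolytic targets, 88.6% for the other targets, 57.6% for the subunits and regulators and 63.6% for the miR-210 targets. Genes listed only because they overlap or adjoin a member reached 87.5%, in 7 of 8 windows. Counted by gene, 25 of the tested non-glycolytic targets with a window had a match, of which 11 rose and 10 fell, with a median of -0.0047. In the 3 without a match, 2 rose and 0 fell, with a median of 0.38. All 20 glycolytic targets with a window had a match, so they hold no group without one. Of these, 6 rose and 10 fell, with a median of -0.16. Over all genes tested, 39.3% were higher and 39.1% lower.

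The genes with the nearest profiles were taken for the members at either end. By Euclidean distance over 6 libraries of log2 CPM, after taking off the DMSO mean, the 3 genes nearest to EPAS1 were XPO6 (distance 0.0452), SENP1 (0.0521) and NFE2L1 (0.0527). Their log2 fold changes were 0.90 ± 0.05, 0.89 ± 0.06 and 0.89 ± 0.06. No profile was as near to MIR210HG. Its nearest were GPR132 (1.08), CCL2 (1.13) and METTL7A (1.41), with log2 fold changes of -5.54, -5.39 and -6.67. In Myrrh these 3 averaged 0.132, 0.55 and 0.102 CPM and MIR210HG 0.322, all near the floor. The part of counting noise in these distances was not tested.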

How the data were processed

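RNA of 3 DMSO and 3 Myrrh libraries was used, 1.5 µg of total RNA each, per the labels' protocols. The authors deposited estimated counts per gene, not scaled between libraries, and log2(TPM + 1) values. The submitters' processing notes name STAR, RSEM 1.3.1 and GRCh38, but neither an annotation release nor a strand setting. RSEM splits reads that match several genes or transcripts, so 11.1% to 12.2% of the estimated counts were not whole.

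Counts were rounded, filtered with filterByExpr, scaled with TMM factors (0.933 to 1.05) and tested with edgeR 4.0.16 (quasi-likelihood F-test, robust, two-sided, R 4.3.3) without a block; adjustment was Benjamini-Hochberg over 16395 genes and the threshold 0.05. Each SE was derived from the fold change and its F statistic. TPM values were tested with limma 3.58.1 at a pseudocount of 1. On simulated data the test missed more small changes than large ones, and its share of false calls was above the nominal threshold. Those data held far fewer changed genes than were called here, so neither share can be carried over. The share of false calls among changes as small as those of VHL, NDRG1 and EGLN1 was not tested. Within groups, chi-square values per degree of freedom were 3.86 to 9.44, so no pair of libraries agreed within sampling noise. Positions come from GENCODE release 29, sequences from RefSeq (GRCh38.p14), matched by symbol.

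The members and lists were chosen with earlier results of these data known. All members are named; from each list, up to 4 called genes at either end of the fold changes, every tested relative of CA9 and NDRG1, genes beside a member, and the 3 genes with profiles nearest to the highest and lowest member. AL137129.1, ARHGEF39 and SPTSSA (overlaps), the other parts of the VHL ligase, HIF1AN, ARNT2, EPO, PFKL, GPI and the uncalled glycolytic genes were named after their values were seen. The alternatives tried were DESeq2 1.42.0 and its size factors, library totals, upper quartile factors, 2 other filters, TPM at 2 pseudocounts, glmTreat, a replicate block and leaving out each library.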

Additional observations from a re-analysis of the deposited data

How the results depend on the processing

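With glmTreat against a log2 fold change of 0.5, 7483 of 16395 genes and 2 of 9 members were called. So were 7 of 21 glycolytic targets, 17 of 36 other targets and 7 of 20 regulators. The calls of HIF1A (0.55), EGLN1 (-0.35), EGLN2 (0.40), VHL (-0.22) and NDRG1 (-0.20) were lost, since that test asks for a larger change. On log2(TPM + 1) and log2(TPM + 0.1), VHL (-0.0414 and -0.0433) and NDRG1 (-0.11 in both) were not called; ARNT (0.0855 and 0.0886), CA9 (0.023 and 0.11) and NDRG4 (0.10 and 0.11) changed sign without a call; the cause was not tested. ARNT was called lower with library totals (-0.19), upper quartile factors (-0.18) and a filter of 5 CPM in 3 libraries (-0.15). RAB4B, never called, was negative with those 3 settings (-0.12, -0.10 and -0.0738) and without DMSO replicate 3 (-0.0293; range over libraries left out -0.0293 to 0.0688). Leaving out 1 library turned NDRG4 to 0.0073 (Myrrh replicate 2; range -0.1446 to 0.0073) and RAB4B-EGLN2 to 0.18 (DMSO replicate 2) or 0.05 (Myrrh replicate 3), none called, while RAB4B-EGLN2 was called at -1.41 (adjusted p = 0.0301, edgeR) without Myrrh replicate 2; the share of EGLN3 differed by -0.0558 to 0.148 points, below 0 without DMSO replicate 2 or 3. Each of those 6 fits called 7 members.

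Same-numbered libraries did not deviate together (correlations across genes of -0.07 to 0.00 (-0.00193)), so no pairing by number was seen. With 3 libraries per group, this does not show whether same-numbered libraries were handled together. With a replicate block, 12782 genes and 7 members were called. Counting depth limits EGLN3, CA9 and EPO.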
